A study of Rattus norvegicus with 12 samples.

Results

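The genes described here are those of the extracellular matrix of the pancreas and of the stellate cells and fibroblasts that make most of it. They are 47 named genes, chosen by function: collagens, laminins, nidogens and other basement membrane components, fibronectin and the elastic fibre proteins, small proteoglycans, enzymes that fold, trim and cross-link collagen, metalloproteinases and their inhibitors, and cytoskeletal and receptor markers of mesenchymal cells. Each was read from the probe set that carries its symbol in the platform annotation, and where there was more than 1, from the probe set with the highest mean over the 12 arrays. Of the 47 genes, 44 were measured, out of 10411 genes with a probe set of their own on the array, and Thbs1, Thbs2 and Loxl2 had none. The 44 genes have 61 probe sets, and 15 genes have more than 1. Of the 44, 27 had a mean signal above the upper quartile of all probe sets and 3 one under the lower quartile, namely Postn, Tnc and Pdgfrb.

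The RNA came from the whole pancreas of adult male Wistar rats, and each of the 12 arrays (Affymetrix RAE230-A) held a pool of 3 rats, with 3 arrays in each of 4 groups. DT rats had diabetes, brought about by streptozotocin, a toxin of the beta cell, and drank sodium tungstate. DU rats had the same diabetes and drank water without tungstate, HT rats were healthy and drank tungstate, and HU rats were healthy and had neither. By the sample labels, tungstate was given at 0.7 g/L for a week and then at 2 g/L for 4 to 5 weeks, with untreated rats kept for 5 to 6 weeks, whereas the methods of the study give a single concentration over a fixed time. Because the pancreas was taken whole, fewer cells of a type and less RNA per cell cannot be told apart, and p-values rest on the spread of pools and not on that of single rats.

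The values are log2 intensities, with array medians of 6.63 to 6.70. Precision is limited by the 3 arrays per group, each of them a pool. By the array records there were 6 scan days and 3 chip lots. The record of DU2 alone notes an in vitro transcription time, of 7 hours, and its effect was not tested. The arrays DT1, DT2 and DU1 were scanned on day 1 and DT3 and HT3 on day 5. No HU array shared a scan day with a DU or a DT array. In fits with a term for each scan day (a scan day block), DT vs. HU therefore runs through HT, by DT3 against HT3 and by HT1 and HT2 against HU3. The estimate of DU vs. HU runs through these arrays and through DT1, DT2 and DU1. A call lost with this block thus cannot be told apart from a loss of precision. The arrays DT1, DT2, DU1, DU2 and HU3 belonged to chip lot 1 and DT3, DU3 and HT3 to chip lot 3. Chip lot 2 held healthy arrays only, namely HT1, HT2, HU1 and HU2. The acinar markers had a summed intensity of 212329.2 to 220899.1 in DT, 201353.3 to 209468.5 in DU, 213283.1 to 219643.3 in HT and 211686.1 to 214209.1 in HU arrays. They are the digestive enzymes of the exocrine tissue that makes up most of the organ. Of these 13 markers, all but Klk1 had mean signals at percentile 99.28 or above, and saturation was not tested. The sum says little about any single enzyme. The amylase gene Amy2a3 had 8.59, 6.45 and 8.78 on the DU arrays and 12.70 to 13.20 on all others. Compared with healthy untreated rats, untreated diabetic rats had 1 acinar marker called higher and 1 lower. The 7 measured markers of quiescent stellate cells, which store vitamin A, had mean signals at percentiles of all probe sets from 5.5 (Lrat, which makes the stored retinyl ester) to 81.12 (Gfap). Probe affinity differs between probe sets, and the share of the matrix signal that comes from stellate cells was not tested.

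In the healthy pancreas the matrix is thin. Basement membranes, built on networks of type IV collagen and laminin joined by nidogen, line the acini, ducts, islets and vessels, while fibrillar collagens of types I, III and V lie in the septa and around the larger vessels. Stellate cells sit around the acini; upon injury they become myofibroblast-like, express smooth muscle actin (Acta2) and secrete fibrillar collagen, fibronectin and periostin, largely under the influence of transforming growth factor beta, and the balance of metalloproteinases and tissue inhibitors of metalloproteinases (TIMPs) sets how fast the matrix is turned over.

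Of the 3 comparisons that involve diabetes, DT vs. HU gave 4 calls and the others 2 each. In DT vs. HU, Lamb1 was higher and Col3a1, Col1a2 and Postn were lower. In DT vs. DU, Lamb1 was higher and Timp3 lower, and in DU vs. HU, Nid2 was higher and Timp2 lower. These calls are at an adjusted p under 0.05 by limma over all 15866 probe sets. In DT vs. HU, 1 of 44 genes was thus called higher and 3 lower, beside 0.756% and 0.561% of all probe sets. In DT vs. DU it was 1 higher and 1 lower, beside 0.655% and 0.46% of all probe sets, and in DU vs. HU 1 and 1, beside 1.47% and 1.73%. By the criterion that the methods use, a B-statistic above 0, the calls were 4 in DT vs. HU (1.18% of all probe sets), 1 in DT vs. DU (1.05%) and 1 in DU vs. HU (1.82%).

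**Figure D1:**
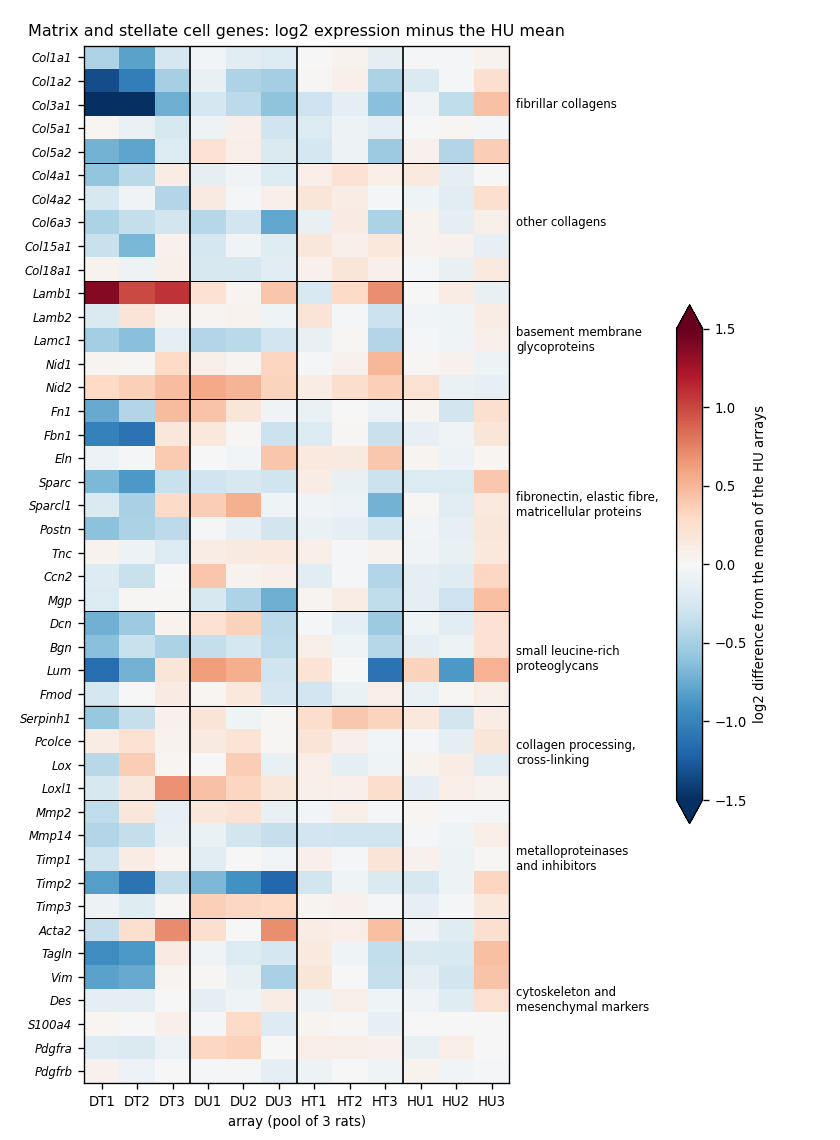
Log2 expression of the 44 genes (rows, grouped by role) on the 12 arrays (columns), as the difference from the mean of the HU arrays; red is higher, blue is lower, and the colour scale ends at 1.5 in both directions. Lamb1 was above the HU mean on all 3 DT arrays, and most genes of the fibrillar collagen, fibronectin and proteoglycan groups were below it on DT1 and DT2. On DT3 the 5 fibrillar collagens were below it, while 6 of 9 genes of the fibronectin group and 3 of 4 proteoglycans were above it.

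The median log2 difference over the 44 genes was -0.17 in DT vs. HU and -0.15 in DT vs. DU, where the medians of all probe sets were -0.02 and 0.00. In both comparisons 34 of the 44 genes had a difference below 0, which was so for 54.4% of all probe sets in DT vs. HU and for 48.4% in DT vs. DU. In DU vs. HU the median was -0.00, with 22 genes on either side of 0, so the genes had no common direction there. Counted by arrays that do not overlap, 10 genes were lower and 2 higher in DT vs. HU, where 11.4% and 9.62% of all probe sets did so. In DT vs. DU 9 were lower and 3 higher (6.28% and 7.58% of all probe sets), and in DU vs. HU 8 were lower and 3 higher (16.9% and 12.5%). The share of lower genes in DT vs. DU, 20.5%, was thus above that of all probe sets, while in DU vs. HU the share of 18.2% was near it.

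**Figure D2:**
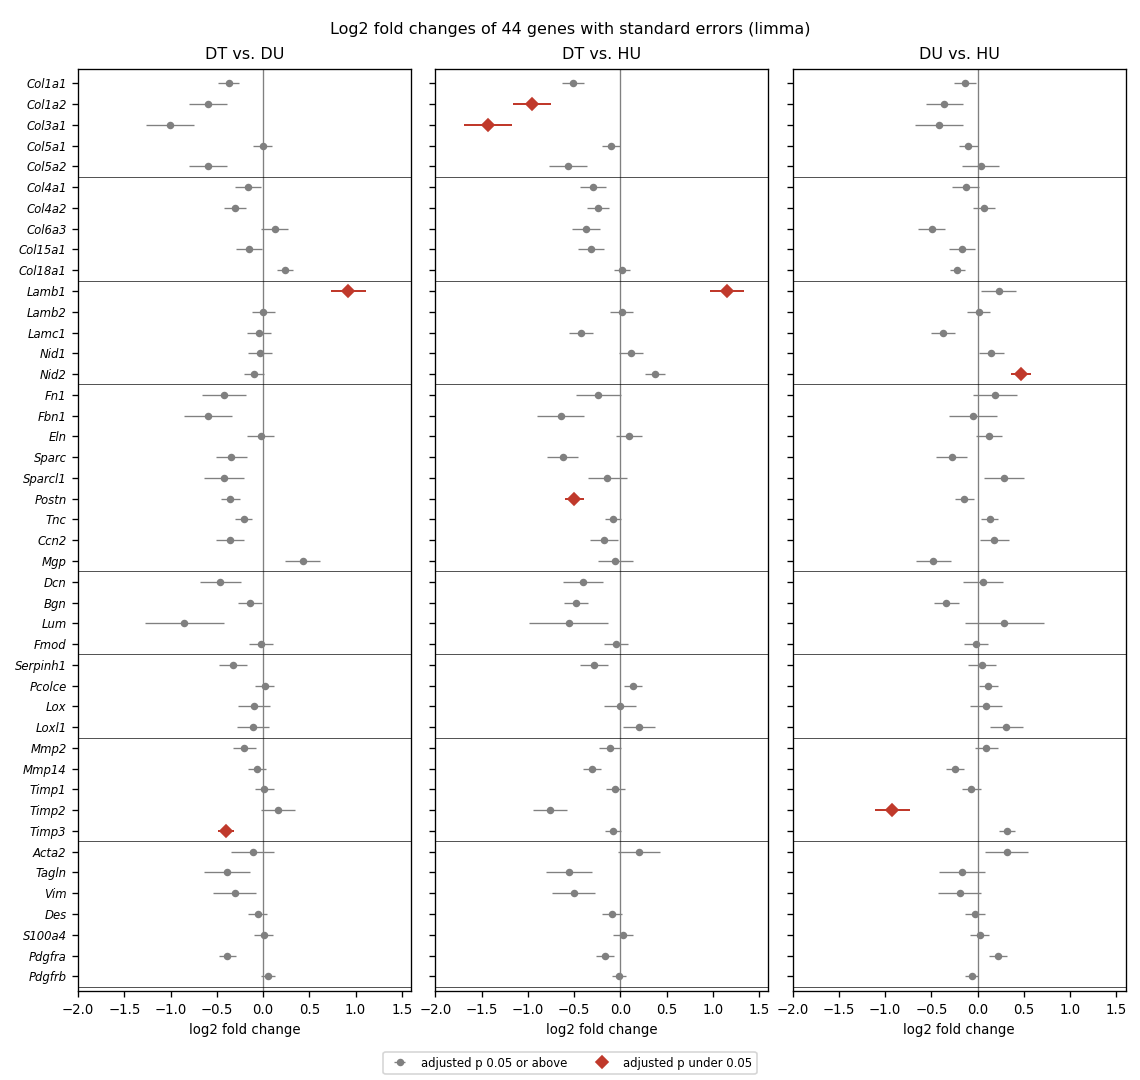
Log2 fold changes (x axis) of the 44 genes (rows, grouped by role) in DT vs. DU, DT vs. HU and DU vs. HU, with limma's standard errors as bars; red diamonds are calls at an adjusted p under 0.05. The calls are Lamb1 and Timp3 in DT vs. DU, Lamb1, Col3a1, Col1a2 and Postn in DT vs. HU, and Nid2 and Timp2 in DU vs. HU, and most grey points in the panels with DT lie left of 0.

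Lamb1 encodes the beta chain found in most laminins of developing and adult basement membranes. Its log2 expression was 9.37, 8.98 and 9.08 on the DT arrays, 8.22, 8.03 and 8.40 on the DU arrays, 7.76, 8.28 and 8.68 on the HT arrays and 8.0, 8.10 and 7.88 on the HU arrays. Every DT array thus lay above every array of the other 3 groups, and the HT arrays were spread over most of the range below. Lamb1 rose 1.90-fold in DT vs. DU (0.92 ± 0.18 on the log2 scale, limma's standard error, adjusted p = 0.0267) and 2.22-fold in DT vs. HU (1.15 ± 0.18, adjusted p = 0.0102). Within chip lot 1, DT1 and DT2 were 1.05 above DU1 and DU2, and within chip lot 3, DT3 was 0.68 above DU3 on the log2 scale. On scan day 5, DT3 was 0.40 above HT3. In DT vs. DU the call was lost without DT1 (0.81, adjusted p = 0.12), DU1 (0.92, 0.103) or DU2 (0.83, 0.139), whereas in DT vs. HU it held without each array in turn (adjusted p 0.0165 to 0.0478). A scan day block gave an adjusted p of 0.093 in DT vs. DU and 0.785 in DT vs. HU, and a chip lot block 0.0851 in DT vs. HU.

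The stretch before the start of Lamb1 is shown because Lamb1 is the gene called in both comparisons of DT. It is the 250 bases upstream of the RefSeq start on the plus strand of chromosome 6 in build GRCr8 (chr6:53562846-53563095), with the 2 matches to the GC box GGGCGG, on either strand, in capitals.
Lamb1: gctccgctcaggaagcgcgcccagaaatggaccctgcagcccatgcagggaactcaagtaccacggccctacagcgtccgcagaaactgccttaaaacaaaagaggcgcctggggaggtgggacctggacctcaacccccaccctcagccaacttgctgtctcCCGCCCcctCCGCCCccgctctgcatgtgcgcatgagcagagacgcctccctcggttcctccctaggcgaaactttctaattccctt
This window holds no TATAAA and no CCAAT on either strand. Of the 44 genes, 30 have a promoter in the RefSeq table used here, and 17 of the 30 hold GGGCGG in the 250 bases (30.5% of all 33469 promoters), 9 hold CCAAT (34.0%) and 6 hold TATAAA (12.9%).

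The other basement membrane glycoproteins did not follow Lamb1. Lamc1, whose gamma chain joins the Lamb1 chain in the laminin trimer, had a log2 difference of -0.05 in DT vs. DU and -0.42 in DT vs. HU (adjusted p = 0.955 and 0.133), and on DT1 and DT2 (7.63 and 7.51) it was below every DU and HU array, whereas DT3 had 8.0. Lamb2, the alternative beta chain, differed by 0.00 and 0.01, and Nid1 by -0.03 and 0.12. A second, dimmer probe set of Nid1 differed by -0.63 and -0.62 (adjusted p = 0.4998 and 0.3), so its probe sets disagree. That of Lamc1 differed by -0.01 and -0.09 (adjusted p = 0.9949 and 0.6562). Nid2, which links laminin to type IV collagen, had 7.08, 7.02 and 6.84 on the DU arrays, against 6.73, 6.40 and 6.38 on the HU arrays. All DU arrays were above all HU arrays, with HU1 the nearest, and the DT arrays lay between or beside them, at 6.80, 6.86 and 6.97. The HT arrays had 6.62, 6.77 and 6.86, so the healthy array HT3 lay above DU3. Nid2 rose 1.39-fold in DU vs. HU (0.47 ± 0.11 on the log2 scale, adjusted p = 0.0321), and in DT vs. HU the difference was 0.37 (adjusted p = 0.114) with arrays that do not overlap. The call was lost without DU1, DU2, HU2 or HU3 (adjusted p = 0.133, 0.106, 0.112 and 0.0993), in the fit with a chip lot block (0.142) and in that with a scan day block (0.521).

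**Figure D3:**
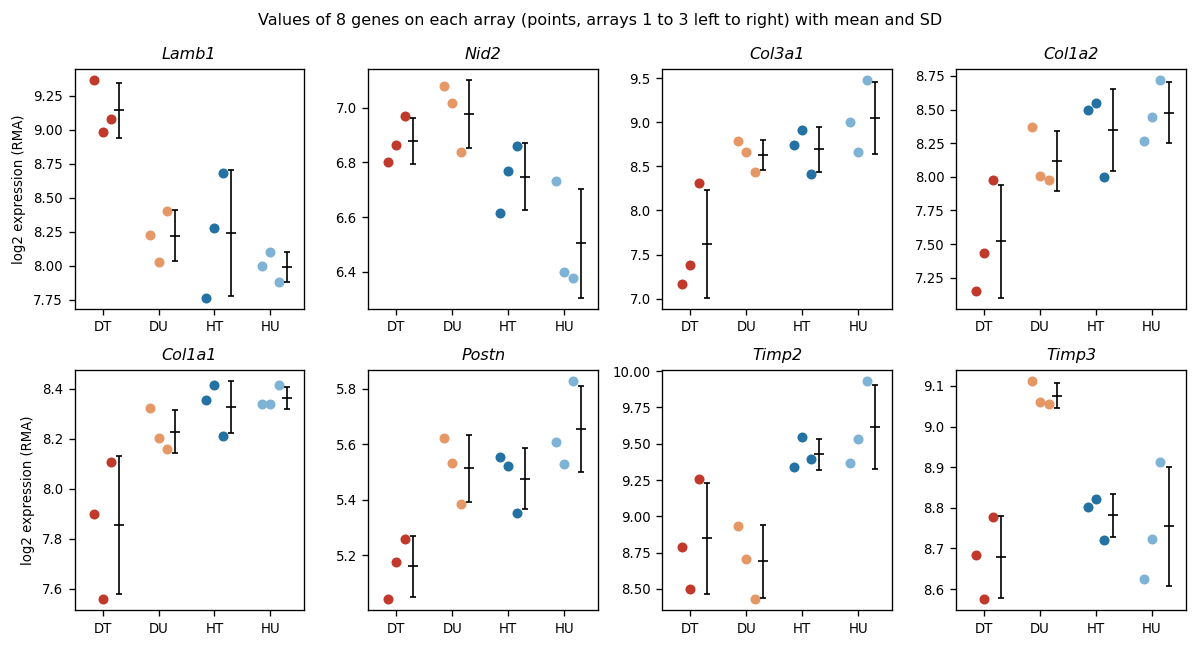
Log2 expression (y axis, which does not start at 0 and differs between panels) of 8 genes on each array of the DT, DU, HT and HU groups, with the group mean and SD as a bar beside the points. Lamb1 is highest on the 3 DT arrays, DT1 and DT2 are the lowest arrays for Col3a1, Col1a2, Col1a1 and Postn, Timp2 is low on DU and on 2 of 3 DT arrays, and Timp3 is highest on the DU arrays.

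Of the 5 fibrillar collagens, 2 fell in DT vs. HU and 0 were called in DT vs. DU, where all 5 were below 0, with a median of -0.60 (-0.56 in DT vs. HU). Col3a1, the chain of type III collagen, which forms the fine reticular fibres of soft organs, had 7.16, 7.38 and 8.31 on the DT arrays, against 8.78, 8.66 and 8.44 on the DU arrays, 8.74, 8.92 and 8.42 on the HT arrays and 9.0, 8.67 and 9.48 on the HU arrays. All 3 DT arrays were below every other array, but DT3 was within 0.11 of HT3 and 0.13 of DU3, while DT1 and DT2 were lower by about 1 log2 unit more. Col3a1 fell by 1.43 on the log2 scale in DT vs. HU (standard error 0.26, adjusted p = 0.0188), and the difference of -1.01 in DT vs. DU did not pass (adjusted p = 0.106).

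Col1a2, which encodes a chain of type I collagen, the main collagen of scar, had 7.15, 7.44 and 7.98 on the DT arrays, against 8.37, 8.01 and 7.97 on the DU arrays and 8.26, 8.45 and 8.72 on the HU arrays. The DT arrays were all below the HU arrays, but DT3 was level with DU3. The HT arrays had 8.50, 8.55 and 8.0. Col1a2 fell by 0.96 in DT vs. HU (standard error 0.20, adjusted p = 0.0385), and in DT vs. DU the difference was -0.60 (adjusted p = 0.293). Col1a1, the other chain, missed the threshold in DT vs. HU (-0.51, adjusted p = 0.0541), with values of 7.90, 7.56 and 8.11 on the DT arrays and 8.34, 8.34 and 8.41 on the HU arrays. The second probe set of Col1a2 differed by -0.56 and that of Col1a1 by -0.93 in DT vs. HU (adjusted p = 0.249 and 0.0893), so the direction was shared. In DT vs. DU these probe sets differed by -0.39 and -0.62 (adjusted p = 0.652 and 0.408).

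Of the other fibrillar collagens, Col5a2, a minor chain that sets fibril width, differed by -0.56 in DT vs. HU (adjusted p = 0.189) and -0.60 in DT vs. DU, whereas its partner Col5a1 differed by -0.10 in DT vs. HU. A second probe set of Col5a2 differed by -0.50 in DT vs. HU and by only -0.18 in DT vs. DU (adjusted p = 0.097 and 0.763). Col5a2 and Col3a1 are neighbours on chromosome 9. In DT vs. HU the call of Col3a1 was lost without DT1, DT2, HU1 or HU3 (adjusted p = 0.0694, 0.0566, 0.0609 and 0.0712), and that of Col1a2 without DT1, DT2, HU1, HU2 or HU3 (0.117, 0.0842, 0.0669, 0.106 and 0.12). Both were lost in the fit with a chip lot block (0.107 and 0.214) and in that with a scan day block (0.544 and 0.883), and Col1a2 also with the mean of its probe sets (-0.76, 0.0847).

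Periostin (Postn), a matricellular protein that fibroblasts secrete during repair, had low values of 5.04, 5.18 and 5.26 on the DT arrays, against 5.62, 5.53 and 5.38 on the DU arrays and 5.61, 5.53 and 5.83 on the HU arrays. All DT arrays were below all DU and HU arrays. The HT arrays had 5.55, 5.52 and 5.35. Postn fell by 0.50 in DT vs. HU (standard error 0.10, adjusted p = 0.0327), and the difference in DT vs. DU was -0.35 (adjusted p = 0.173). Its mean of 5.45 over the 12 arrays lies at percentile 22.14, where signals are dim. The call was lost without DT1, DT2, HU1, HU2 or HU3 (adjusted p = 0.109, 0.0624, 0.085, 0.0539 and 0.106) and with the chip lot or the scan day as a block (0.132 and 0.69).

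The upstream stretches of Postn and Col1a2 are shown because these are the genes called lower in DT vs. HU that have a RefSeq promoter here, and Col3a1 has none in the table. Postn is given by the 250 bases before its start on the plus strand (chr2:140677811-140678060, GRCr8) and Col1a2 by the first 90 bases of that window on the plus strand (chr4:33518307-33518396, GRCr8), with TATAAA and CCAAT, on either strand, in capitals.
Postn: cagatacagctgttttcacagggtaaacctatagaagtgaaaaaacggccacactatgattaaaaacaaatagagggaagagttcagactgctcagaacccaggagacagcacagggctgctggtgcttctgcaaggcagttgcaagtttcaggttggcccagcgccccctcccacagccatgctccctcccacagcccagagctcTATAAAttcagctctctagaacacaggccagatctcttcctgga
Col1a2: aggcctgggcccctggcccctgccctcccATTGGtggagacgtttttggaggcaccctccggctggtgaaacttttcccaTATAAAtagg
Postn holds 1 TATAAA and Col1a2 1 TATAAA and 1 CCAAT, whose match is on the opposite strand, and neither holds GGGCGG in the stretch shown. The TATAAA of Col1a2 begins 170 bases before the RefSeq start used here, against 44 bases for Postn, and the bases that follow it in the Col1a2 window are left out because they may be transcribed. Lamb1 above holds only GGGCGG. The other genes with TATAAA in the window were Ccn2, S100a4, Tnc and Vim.

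Type IV collagen is the scaffold of basement membranes, and its chains Col4a1 and Col4a2 are encoded head to head on chromosome 16. The 76 bases between the 2 starts are shown because 1 stretch lies before both genes (chr16:84885521-84885596, GRCr8, plus strand, which reads toward Col4a1), with the GC box in capitals.
Col4a1 and Col4a2: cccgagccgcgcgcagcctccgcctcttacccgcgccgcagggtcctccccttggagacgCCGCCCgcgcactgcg
On the DT arrays the pair did not vary together. Col4a1 had 6.64, 6.82 and 7.34, with DT3 the highest, whereas Col4a2 had 8.38, 8.57 and 8.18, with DT3 the lowest. On the DU arrays they had 7.09, 7.17 and 7.03 for Col4a1 and 8.75, 8.60 and 8.70 for Col4a2, and on the HU arrays 7.37, 7.08 and 7.22 and 8.56, 8.45 and 8.86. Within chip lot 3, DT3 minus DU3 was 0.31 for Col4a1 and -0.52 for Col4a2. Neither gene passed in any of the comparisons, with the nearest adjusted p at 0.323 for Col4a1 and 0.324 for Col4a2, both in DT vs. HU. A second probe set of Col4a1 was nearer to the threshold there (-0.50, adjusted p = 0.062).

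Of the remaining collagens, Col6a3, a chain of the beaded filaments around cells, had 7.60, 7.75 and 7.25 on the DU arrays, against 8.08, 7.89 and 8.12 on the HU arrays. Every DU array was below every HU array, with a difference of -0.50 that did not pass (adjusted p = 0.0869), and in DT vs. HU it was -0.37 (adjusted p = 0.236). Col6a3 had 7.55, 7.68 and 7.75 on the DT arrays and 7.92, 8.155 and 7.56 on the HT arrays. Col15a1 and Col18a1, which carry glycosaminoglycan chains in basement membrane zones, differed by -0.32 and 0.02 in DT vs. HU. Col18a1, the precursor of endostatin, lay higher on every DT array (8.34, 8.21 and 8.37) than on every DU array (8.05, 8.05 and 8.11), by 0.24 (adjusted p = 0.321).

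Among the fibronectin, elastic fibre and matricellular genes, 8 of 9 were below 0 in DT vs. DU and Postn alone was called, in DT vs. HU. Fibronectin (Fn1), the adhesive protein on which collagen is laid down, had 7.61, 7.93 and 8.85 on the DT arrays, against 8.79, 8.55 and 8.32 on the DU arrays and 8.41, 8.10 and 8.61 on the HU arrays. Fibrillin (Fbn1), the core of the microfibril, had 5.99, 5.89 and 7.17 on the DT arrays, against 7.16, 7.01 and 6.68 on the DU arrays and 6.87, 6.95 and 7.18 on the HU arrays. In both genes DT1 and DT2 were below all DU and HU arrays, and DT3 was above all DU arrays, so the groups overlap (DT vs. DU -0.42 and -0.60, adjusted p = 0.631 and 0.457). A second probe set of Fbn1 differed by only -0.11 in DT vs. DU (adjusted p = 0.9041). Sparc, which binds collagen, was lower on every DT array (8.31, 8.12 and 8.65) than on every DU array (8.69, 8.74 and 8.68) and HU array (8.78, 8.78 and 9.39), by -0.34 and -0.62 (adjusted p = 0.538 and 0.0894). Its relative Sparcl1 differed by -0.42 and -0.14. Ccn2, a target of transforming growth factor beta, and tenascin (Tnc) had arrays that did not overlap in DT vs. DU, with differences of -0.36 and -0.21 (adjusted p = 0.449 and 0.455), and elastin (Eln) differed by -0.03.

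Matrix Gla protein (Mgp), an inhibitor of calcification made by vascular smooth muscle, was the gene of this group that lay above 0 in DT vs. DU. It had 9.95, 10.17 and 10.17 on the DT arrays, against 9.91, 9.69 and 9.42 on the DU arrays and 10.01, 9.84 and 10.61 on the HU arrays. The DT arrays were all above the DU arrays, by 0.43 (adjusted p = 0.472), and overlapped the HU arrays. On the HT arrays Mgp had 10.2, 10.26 and 9.77. The difference of -0.48 in DU vs. HU did not pass either (adjusted p = 0.176).

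The small leucine-rich proteoglycans bind collagen fibrils and set their spacing. All 4 were below 0 in DT vs. DU and in DT vs. HU, and none passed. Lumican (Lum) had 6.04, 6.47 and 7.36 on the DT arrays, 7.81, 7.72 and 6.89 on the DU arrays, 7.38, 7.19 and 6.07 on the HT arrays and 7.52, 6.33 and 7.70 on the HU arrays. At least 1 array of each group was thus below 7 and 1 above, and the groups overlapped, with a difference of -0.85 in DT vs. DU (standard error 0.43, adjusted p = 0.552). Decorin (Dcn), whose gene lies next to Lum on chromosome 7, differed by -0.46 in DT vs. DU, biglycan (Bgn) by -0.14 and fibromodulin (Fmod) by -0.03. Biglycan was below every HU array on every DT array, with -0.48 in DT vs. HU (adjusted p = 0.0935).

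The genes for collagen folding, trimming and cross-linking gave no call. Serpinh1, the collagen chaperone of the endoplasmic reticulum, had 7.21, 7.44 and 7.85 on the DT arrays, 7.97, 7.71 and 7.80 on the DU arrays, 8.05, 8.18 and 8.11 on the HT arrays and 7.94, 7.51 and 7.89 on the HU arrays. The HT arrays were all above the HU arrays, by 0.33 (adjusted p = 0.871), whereas DT3 alone of the DT arrays reached the DU range. Pcolce, which enhances the removal of the procollagen tail, differed by 0.02 in DT vs. DU, and the cross-linking oxidases Lox and Loxl1 by -0.10 and -0.11. Loxl1 was higher on every DU array than on every HU array, by 0.31 (adjusted p = 0.339).

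Of the tissue inhibitors of metalloproteinases, Timp2 and Timp3 were called, in different comparisons. Timp2, which also helps Mmp14 to activate Mmp2, had 8.93, 8.71 and 8.43 on the DU arrays, against 9.37, 9.53 and 9.93 on the HU arrays. All DU arrays were below all HU arrays, and Timp2 fell by 0.92 in DU vs. HU (standard error 0.19, adjusted p = 0.0157). Timp2 had 9.34, 9.54 and 9.40 on the HT arrays. On the DT arrays it had 8.79, 8.50 and 9.26, so that DT3 lay near the healthy range and DT1 and DT2 in that of the DU arrays (DT vs. HU -0.76, adjusted p = 0.0642). A second, dimmer probe set of Timp2 differed by 0.17 in DU vs. HU (adjusted p = 0.498), so the probe sets disagree, and with their mean the difference was -0.38 (adjusted p = 0.144). The call was also lost without DU2, DU3 or HU3 (adjusted p = 0.0554, 0.0639 and 0.0599), in the fit with a chip lot block (0.0504) and in that with a scan day block (0.805).

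Timp3, the inhibitor that stays bound to the matrix, had 8.68, 8.58 and 8.78 on the DT arrays, against 9.11, 9.06 and 9.05 on the DU arrays, 8.80, 8.82 and 8.72 on the HT arrays and 8.63, 8.72 and 8.91 on the HU arrays. The 3 DU arrays were above all 9 others. Timp3 fell by 0.40 in DT vs. DU (standard error 0.09, adjusted p = 0.0465), and in DU vs. HU it differed by 0.32 (adjusted p = 0.0643), so that DT and HU arrays were close, with a difference of -0.08. The call in DT vs. DU held in 2 of 15 alternatives, and was lost without DT1, DT2, DU1, DU2 or DU3 (adjusted p = 0.124, 0.157, 0.194, 0.147 and 0.106). The other 3 probe sets of Timp3 differed by -0.04, 0.06 and -0.21 in DT vs. DU, and none passed. Timp1, the inducible inhibitor, differed by 0.01 in DT vs. DU and -0.05 in DT vs. HU. Mmp2 and its membrane-bound activator Mmp14 differed by -0.21 and -0.07 in DT vs. DU, and Mmp14 was lower on every DT, DU and HT array than on every HU array, without passing in any comparison (adjusted p = 0.141 in DT vs. HU).

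No marker of the mesenchymal cytoskeleton or its receptors passed. Acta2, the actin of myofibroblasts and of vessel walls, had 6.85, 7.44 and 7.91 on the DT arrays, against 7.43, 7.20 and 7.89 on the DU arrays and 7.14, 7.01 and 7.44 on the HU arrays, so the groups overlapped. Transgelin (Tagln), a smooth muscle protein, and vimentin (Vim), the intermediate filament of mesenchymal cells, differed by -0.56 and -0.50 in DT vs. HU (adjusted p = 0.281 and 0.301). Desmin (Des), a filament protein of muscle and stellate cells, differed by -0.09 and S100a4, a calcium-binding protein of fibroblasts and leukocytes, by 0.03. Pdgfra, the receptor for platelet-derived growth factor on fibroblasts, was lower on every DT array (7.46, 7.44 and 7.57) than on every DU array (7.97, 8.0 and 7.66), by -0.39 (adjusted p = 0.0834). Without DU3 it was called lower (-0.49, adjusted p = 0.0176). Pdgfrb, the receptor of pericytes, differed by 0.05.

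The 3 DT arrays were not alike in these genes. DT3 was the highest DT array for 33 of 44 genes, where it was so for 31.4% of all probe sets, and it lay above the mean of DT1 and DT2 for 38 genes (45.1% of all probe sets), by a median of 0.27 on the log2 scale. The SD among the 3 pools was largest in DT for 22 of the 44 genes (36.4% of all probe sets), with a median SD of 0.24 in DT, 0.16 in DU, 0.13 in HT and 0.15 in HU. The genes in which DT3 was farthest above DT1 and DT2 were Fbn1 (1.23), Lum (1.11), Fn1 (1.07), Col3a1 (1.04) and Tagln (1.02). Those below were Col4a2 (-0.29), Col5a1 (-0.20), Tnc (-0.19), Pcolce (-0.11), Lamb1 (-0.09) and Mmp2 (-0.03). The other groups also held arrays that stood apart. DU3 was the lowest of its group for 31 genes (36.5% of all probe sets) and HU2 for 27 (33.8%). HU3 was the highest of its group for 29 (37.3%).

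Without DT3, 6 genes were called lower in DT vs. DU (Col1a1, Col1a2, Col3a1, Fn1, Fbn1 and Timp3), where 0.693% of all probe sets were. In DT vs. HU 12 were (Col1a1, Col1a2, Col3a1, Col4a1, Col15a1, Lamc1, Fbn1, Sparc, Postn, Mmp14, Timp2 and Tagln), beside 1.06% of all probe sets. Without DT1 or without DT2 none was called lower in either comparison. Of all probe sets, 0.366% and 0.347% were then lower in DT vs. DU, and 0.265% and 0.34% in DT vs. HU. Lamb1 was called higher in DT vs. HU in each of the 3 cases. A scan day block leaves DT1, DT2 and DU1 as the only arrays that enter the DT vs. DU estimate, and 9 genes were called lower (Col1a2, Col3a1, Fn1, Fbn1, Sparcl1, Ccn2, Dcn, Tagln and Vim), beside 0.813% of all probe sets.

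**Figure D4:**
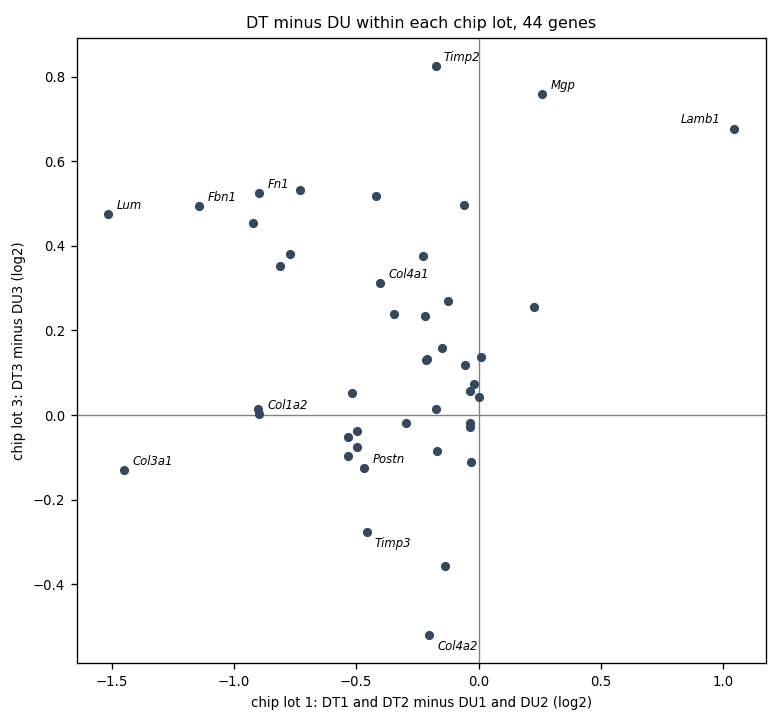
For each of the 44 genes (points), the log2 difference DT1 and DT2 minus DU1 and DU2 within chip lot 1 (x axis) against DT3 minus DU3 within chip lot 3 (y axis). In lot 1, 39 genes lie below 0, and in lot 3, 14 do. Lamb1 and Mgp are above 0 in both, and Timp3 and Col3a1 are below 0 in both.

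The differences between arrays of the same lot did not share a direction. Within chip lot 1 the median of DT1 and DT2 minus DU1 and DU2 was -0.22, with 39 of 44 genes below 0 (44.6% of all probe sets), and within chip lot 3 the median of DT3 minus DU3 was 0.12, with 14 genes below 0 (52.8% of all probe sets). DT1 and DT2 against HU3, in lot 1, gave -0.44 with 38 genes below 0 (48.9% of all probe sets). HU3 is a single array there, and it was the highest HU array for 29 genes. DT3 against HT3, on scan day 5 and with 1 array each, gave 0.06 with 17 genes below 0 (55.1% of all probe sets). For Fbn1 and Fn1 the sign turned, with -1.14 and -0.90 in lot 1 and 0.50 and 0.53 in lot 3, and Col3a1 had -1.45 and -0.13. Chip lot 3 holds a single array each of DT, DU and HT, so its differences have no replicate. Its DU array, DU3, was the lowest DU array for 31 genes.

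**Figure D5:**
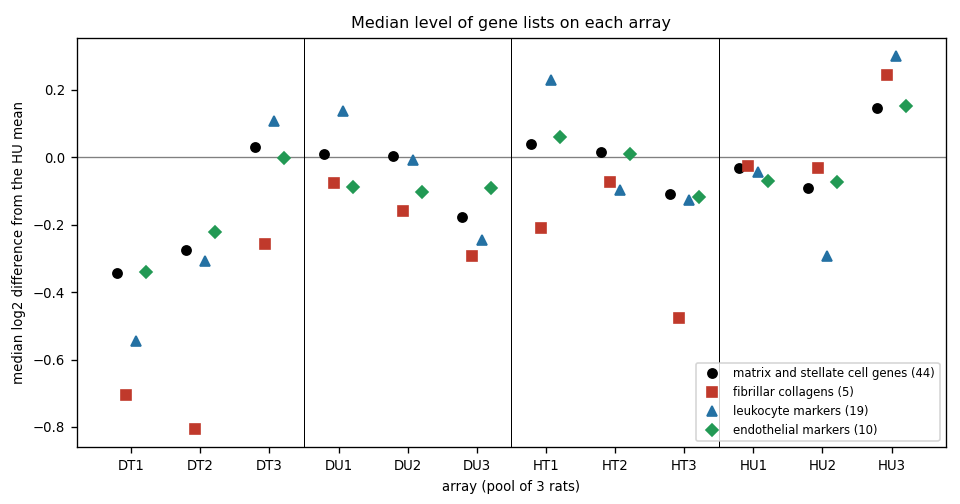
Median log2 difference from the HU mean (y axis) on each array (x axis) for the 44 genes, the 5 fibrillar collagens, 19 leukocyte markers and 10 endothelial markers. All 4 lists are lowest on DT1 and DT2, and all but the fibrillar collagens are near or above 0 on DT3.

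Markers of blood and vessel cells differed between the same arrays. The median of 19 leukocyte markers against the HU mean was -0.55, -0.31 and 0.11 on the DT arrays, 0.14, -0.01 and -0.25 on the DU arrays and -0.04, -0.29 and 0.30 on the HU arrays. For the 44 matrix genes it was -0.34, -0.27 and 0.03 on the DT arrays, 0.01, 0.00 and -0.18 on the DU arrays and -0.03, -0.09 and 0.15 on the HU arrays. The 10 endothelial markers had -0.34, -0.22 and -0.00 on the DT arrays. The summed intensity of the leukocyte list was 3702.7 to 8631.0 in DT, 5683.1 to 8277.3 in DU, 6462.3 to 8792.9 in HT and 5198.2 to 10452.7 in HU arrays, and that of the endothelial list 1611.5 to 2107.0, 1946.2 to 2000.8, 1986.6 to 2174.6 and 1929.0 to 2458.5. The mean signals of the leukocyte markers lay at percentiles 15.1 (Cd3e) to 98.45 (Lyz2), with the pan-leukocyte antigen Ptprc at 17.69, and those of the endothelial markers at 37.52 (Tie1) to 97.08 (Plvap). None of the 19 leukocyte or 10 endothelial markers passed in DT vs. DU or DT vs. HU. Below 0 were 16 and 7 of them in DT vs. DU (48.4% of all probe sets) and 18 and 9 in DT vs. HU (54.4%). Their part in the differences of the matrix genes was not tested. The 3′ minus 5′ difference of the Gapdh control was 0.69 to 0.94 in DT, 0.64 to 0.87 in DU, 1.01 to 1.25 in HT and 0.66 to 1.03 in HU arrays, with DT3 at 0.94 and DT1 at 0.88.

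In healthy rats tungstate changed none of the 44 genes at the threshold. In HT vs. HU 0 genes were called in either direction, by limma's adjusted p (0% of all probe sets higher and 0.0063% lower) or by the B-statistic (0%), and 3 had an unadjusted p under 0.05, where 5.41% of all probe sets did. The largest differences were Serpinh1 (0.33), Lamb1 (0.25), Col3a1 (-0.36) and Lum (-0.30). Lamb1 on HT3 (8.68) was above all DU and HU arrays, and on HT1 (7.76) it was the lowest of the 12. The median over the genes was -0.05, and 27 of 44 were below 0 (50.6% of all probe sets).

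Whether tungstate acted differently in diabetic and in healthy rats is asked by an interaction term, in which the HT vs. HU difference is taken from that of DT vs. DU. No gene passed (0.271% of all probe sets were higher, 0.151% lower, and 0.58% had a B-statistic above 0), and 6 had an unadjusted p under 0.05 (8.75% of all probe sets). The estimate was 0.67 for Lamb1 (standard error 0.26, adjusted p = 0.447), -0.65 for Col3a1 (0.37, adjusted p = 0.668), -0.66 for Serpinh1 (0.21, adjusted p = 0.354) and 0.50 for Mgp (0.27, adjusted p = 0.636). The calls in diabetic rats are therefore not shown to differ from the response in healthy rats.

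Genes of the same pathways outside the set were mostly not called. Of 38 other matrix genes, 1 was lower in DT vs. DU, the osteopontin gene Spp1, with 6.98, 7.11 and 7.19 on the DT arrays, against 7.67, 7.59 and 7.61 on the DU arrays (-0.53, adjusted p = 0.0319). Its DT arrays were all below the DU arrays, and Spp1 is a duct cell marker as well. In DT vs. HU, Col6a2, a partner chain of Col6a3, was lower by 0.49 (adjusted p = 0.0317), and in DU vs. HU, Fbln2, a fibulin of basement membranes and elastic fibres, was higher by 0.57 (adjusted p = 0.00726), the same direction as Nid2. Their median was -0.09 in DT vs. DU, with 27 of 38 below 0. Of 19 genes of the transforming growth factor beta pathway, Tgfb3 alone was called. It had 8.93, 8.49 and 8.70 on the DT arrays, against 7.46, 7.28 and 7.66 on the DU arrays, 7.96, 8.03 and 8.25 on the HT arrays and 7.78, 7.89 and 7.89 on the HU arrays. All DT arrays were above all others, as for Lamb1, and Tgfb3 rose 2.37-fold in DT vs. DU (1.24, adjusted p = 7.94e-05) and 1.81-fold in DT vs. HU (0.85, adjusted p = 0.0049). Its interaction was 1.02 (adjusted p = 0.021). None of 14 integrin genes, 20 other matrix proteases and inhibitors, 14 smooth muscle and pericyte genes and 7 quiescent stellate cell genes passed in any of the comparisons, and of 14 other collagen processing genes Ppib, a peptidyl-prolyl isomerase of collagen folding, was lower in DU vs. HU (-0.35, adjusted p = 0.0499).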

How the data were processed

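Whole-pancreas RNA was measured on 12 Affymetrix RAE230-A arrays. The authors computed RMA values (background adjustment, quantile normalization, summary) with Bioconductor's affy package (version not given in the sources used here). As deposited, the values are on the log2 scale and were used as they are. The array has 15923 probe sets. Without its 57 controls 15866 were tested, of which the annotation gives 1 symbol to 12783, several to 312 and none to 2771. Group means were fitted with limma 3.58.1 in R 4.3.3, and p-values of its moderated test were adjusted by the Benjamini-Hochberg method over all probe sets tested. Groups came from the sample titles, and scan day and chip lot from the array records, coded by number.

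The 47 genes and the other lists were chosen with earlier results of these data known. The text gives values per array for genes called in any comparison and for the 2 largest rises and falls in each, by rule. Values on some arrays are given for Col1a1, Lamc1, Col4a1, Col4a2, Col18a1, Fn1, Fbn1, Sparc, Acta2 and Pdgfra, chosen after their values were seen. Of other lists, up to 4 genes with the smallest adjusted p are named. The alternatives were quantile normalization, median centring, omission of the lowest 25% of probe sets, the 6 arrays compared alone, limma with trend and robust, blocks for scan day, chip lot and replicate number, the mean of a gene's probe sets, a B-statistic above 0 at a prior proportion of 0.01, and omission of each array. Promoter sequences are those of RefSeq, build GRCr8. The main fit did not pair arrays by replicate number. Quantitative PCR, histology and cell culture were not analysed here.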

Additional observations from a re-analysis of the deposited data

How the results depend on the processing

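Lamb1 was the firmest call, in 13 of 15 alternatives in DT vs. HU and 11 of 15 in DT vs. DU, followed by Timp2 (9) and Nid2 (8) in DU vs. HU, Col3a1 (8 of 15) and Col1a2 (5 of 15) in DT vs. HU, Postn (5 of 14) in DT vs. HU and Timp3 (2 of 15) in DT vs. DU. These tallies leave out the B-statistic, by which Nid2 (B of -0.47) and Timp3 (-0.04) were not called. No call changed direction in any of these. The 3 arrays per group limit the precision, and single arrays decide the counts of lower genes. They were highest without DT3 and 0 without DT1 or DT2 in both comparisons of DT, and also 0 without DU1 or DU2 in DT vs. DU, without HU1 or HU3 in DT vs. HU, and without DU2, DU3 or HU3 in DU vs. HU. With an array left out, genes called lower numbered 0 to 6 in DT vs. DU, 0 to 12 in DT vs. HU and 0 to 1 in DU vs. HU, and genes called higher 0 to 1 in DT vs. DU, 1 in DT vs. HU and 0 to 1 in DU vs. HU. The shares of all probe sets called lower were 0.271% to 0.693%, 0.17% to 1.06% and 0.687% to 1.22%. Those called higher were 0.384% to 0.719%, 0.214% to 0.87% and 0.662% to 1.1%, in the same order. The median of the 44 genes then lay between -0.20 and -0.07 in DT vs. DU, -0.25 and -0.12 in DT vs. HU, -0.08 and 0.05 in DU vs. HU, -0.09 and 0.03 in HT vs. HU, and -0.30 and -0.10 for the interaction.

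With the scan day as a block, 0 genes were called in DU vs. HU, with a median of 0.29. Of all probe sets, 0.12% were called higher there and 0.0945% lower. In DT vs. HU 0 genes were called, with a median of 0.0214, where 0.0126% of all probe sets were higher and 0.0063% lower. Both estimates run through the HT arrays and rest partly on single arrays. In DT vs. DU, this block called 0 genes higher and 9 lower (0.447% and 0.813% of all probe sets), with a median of -0.28. With the chip lot as a block, Lamb1 in DT vs. DU was the only call, with 0 lower there, and 0 in either direction in the comparisons with HU. Of all probe sets, 0.782% were then called higher and 0.498% lower in DT vs. DU. In DT vs. HU it was 0.176% and 0.29%, and in DU vs. HU 0.611% and 0.876%. With the replicate block, 0 genes were lower in DT vs. DU (Timp3, adjusted p = 0.0703) and 1 in DT vs. HU (Col1a2, 0.0538, and Postn, 0.0501, were lost), and other calls were unaffected. Of all probe sets, 0.429% were lower in DT vs. DU and 0.611% in DT vs. HU. Arrays with the same number did not deviate together in all 3 pairs (correlations of -0.287 to 0.314 over the comparisons). Some of them share a chip lot, with DT3, DU3 and HT3 all in lot 3.

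Quantile normalization gave 2 genes higher in DU vs. HU, with Timp3 added, and 5 lower in DT vs. HU, with Col1a1 and Timp2 added. Of all probe sets, 1.83% and 0.592% were so called. With the 6 arrays compared alone, 0 were higher and 2 lower in DU vs. HU (1.95% and 2.25% of all probe sets). In that setting 0 were lower in DT vs. DU (0.221% of all probe sets) and 0 lower in DT vs. HU (0.101%). Genes lower in DT vs. DU numbered 0 with median centring, without the lowest 25% of probe sets, with trend and robust, with the mean of a gene's probe sets and by the B-statistic. In these fits 0.416% to 0.597% of all probe sets were lower, and by the B-statistic 1.05% were called in either direction. The mean of probe sets also gave 0 lower in DU vs. HU (1.74% of all probe sets), and the B-statistic 0 higher there (1.82% in either direction). The causes were not tested.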
